A study of Mus musculus with 27 samples.

Results

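The loci described here are those of 7 cardiac sarcomere genes, Ttn, Myh6, Myh7, Tnnt2, Actc1, Actn2 and Myl7. Their members are all regions of the deposited accessibility table that overlap, by at least 1 bp, 1 of 6 fixed genomic windows of the mouse build mm9 (Myh6 and Myh7 share a window). The windows hold 42 of the 30815 regions: 13 at Actc1, 10 at Ttn, 8 at Myl7, 4 at Tnnt2, 4 at Actn2 and 3 at Myh6 and Myh7. Each region is named after its window and numbered by position in it, so that Actc1 r11 is the eleventh region of the Actc1 window. The number says nothing of the gene a region may serve. No annotation of mm9 was used, so no region is placed in a promoter, exon or intron. The windows may also hold parts of neighbouring genes, which in RefSeq gene order include Plekha3 and Ccdc141 for Ttn, Cmtm5 and Ngdn for the Myh6 and Myh7 pair, Lad1 and Pkp1 for Tnnt2, Gjd2 and Aqr for Actc1, and Mtr and Heatr1 for Actn2.

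The study measured chromatin accessibility by ATAC-seq, in which a transposase cuts open chromatin and adds sequencing adapters. The cells were a line of cardiac fibroblasts from neonatal mice (strain Cd-1, genotype alpha-MHC-GFP, a cardiomyocyte reporter), immortalised with large T antigen, and all groups share these features. Retroviruses carried dsRed (control) or Gata4 (G), Mef2c (M) and Tbx5 (T), singly, in pairs (GM, GT, MT) or together (GMT), and each of the 8 groups has 3 libraries made at day 2. All 7 factor groups were cultured with SB431542, which inhibits TGF-beta signalling, and XAV939, which inhibits Wnt signalling, and the control with neither. In a comparison with the control, factors and inhibitors cannot be told apart, and only comparisons between factor groups are matched. The 3 samples of dsRed cells with inhibitors were not analysed here. Cells were not sorted, so a library averages over cells with and without each virus, and fewer open cells cannot be told apart from less open chromatin per cell. The reporter transgene is driven by alpha-MHC (Myh6) promoter sequence, and reads from it and from the Myh6 locus cannot be told apart in these counts. The cell type was not checked against marker genes, because the regions carry no gene names.

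Library totals ran from 241394 counts (GMT replicate 1) to 1704896 (MT replicate 1). The 42 regions held 0.076% to 0.0923% of the counts in the control, G, M and GM libraries and in GT replicates 1 and 3. In the T, MT and GMT libraries and in GT replicate 2 they held 0.103% to 0.168%. Depth at single regions was low: the median count of a member in a library was 8, 54.5% of these counts were below 10, and a count of 0 allows up to 3 counts, which is 1.91 to 12 CPM depending on the library (CPM is the count scaled to library size, per 1e+06 counts). Across all regions tested, GT replicate 1 correlated better with the G libraries (mean Spearman rho 0.893) than with its own group (0.726). It was nearest to G replicate 1 (0.941), and stood at 0.73 and 0.722 with GT replicates 2 and 3. G replicate 1 correlated less with its own group (mean 0.866) than with GT replicate 1. GT replicate 1 was nevertheless kept in the main values of GT and of the additions. G replicate 2 and GM replicate 2 were slightly nearer to the control than to their groups, and GMT replicate 1 was nearer to MT. Where a call in GT or on the addition of G is printed for a region below, it is therefore given with and without GT replicate 1. Not every such call is printed. Leading counts are also given without these 4 libraries. Without GT replicate 1, all 19 called additions of T and all 12 of M were kept. Of 7 called additions of G, 3 were lost (Actc1 r2, Actc1 r9 and Myl7 r8). Of 4 calls between GT and T, 3 were lost (Actc1 r3, Actc1 r6 and Myl7 r1).

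The sarcomere is the contractile unit of striated muscle, in which myosin motors of the thick filament pull on actin of the thin filament between neighbouring Z-discs. Myh6 and Myh7 encode the alpha and beta myosin heavy chains, and Myl7 the regulatory light chain of atrial myosin. Actc1 encodes cardiac alpha-actin, Tnnt2 the troponin subunit that ties the calcium switch to the thin filament, Ttn the giant spring titin, and Actn2 the alpha-actinin that anchors actin at the Z-disc. Fibroblasts keep these genes largely silent. GATA4, MEF2C and TBX5 are transcription factors of the developing heart that bind GATA, MEF2 and T-box motifs, and their joint expression can turn fibroblasts towards cardiomyocyte-like cells.

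The promoters of all 7 genes were found in RefSeq (build GRCm38.p6, 250 bases before to 50 after the start). They show which of these genes carry the motifs of the 3 factors at the start itself. GATAA for GATA, GGTGT for T-box and the MEF2 motif were searched on both strands. A MEF2 match was found in the Ttn promoter alone among the 7 genes, against 3.19% of 32851 mouse promoters. GGTGT lay in the Ttn promoter and at the upstream Tnnt2 start (41.6% of all). GATAA lay at that Tnnt2 start and in the Myl7 promoter (25.4% of all). The second Tnnt2 start (chr1:135836739-135837038), not shown, held no match to any of the motifs. The promoters of Myh7, Actc1 and Actn2, like that of Myh6, held none of these letters. Capitals mark the matches. The Myh6 promoter is shown because the reporter is driven by promoter sequence of this gene. The coordinates are of another build than the regions, and the position of a region relative to a promoter was not determined.
Ttn, GRCm38.p6 chr2:76982498-76982797, minus strand: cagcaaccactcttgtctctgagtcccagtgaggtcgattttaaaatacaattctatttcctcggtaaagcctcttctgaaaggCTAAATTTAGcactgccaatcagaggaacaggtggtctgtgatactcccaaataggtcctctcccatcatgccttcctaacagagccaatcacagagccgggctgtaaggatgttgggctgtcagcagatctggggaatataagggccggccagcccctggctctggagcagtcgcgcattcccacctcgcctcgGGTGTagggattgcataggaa
Tnnt2, upstream start, GRCm38.p6 chr1:135836084-135836383, plus strand: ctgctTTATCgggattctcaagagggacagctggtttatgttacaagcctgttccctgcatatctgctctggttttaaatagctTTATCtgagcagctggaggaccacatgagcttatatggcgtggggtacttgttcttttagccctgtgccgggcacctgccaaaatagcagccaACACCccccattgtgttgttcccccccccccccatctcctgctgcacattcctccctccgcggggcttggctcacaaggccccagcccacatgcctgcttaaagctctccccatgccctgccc
Myl7, GRCm38.p6 chr11:5898733-5899032, minus strand: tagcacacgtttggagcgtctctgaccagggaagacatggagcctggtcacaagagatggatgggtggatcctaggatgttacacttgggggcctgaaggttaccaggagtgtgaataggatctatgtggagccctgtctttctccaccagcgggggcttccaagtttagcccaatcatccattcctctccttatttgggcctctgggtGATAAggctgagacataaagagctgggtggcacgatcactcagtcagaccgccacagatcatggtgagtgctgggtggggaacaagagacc
Myh6, GRCm38.p6 chr14:54966558-54966857, minus strand: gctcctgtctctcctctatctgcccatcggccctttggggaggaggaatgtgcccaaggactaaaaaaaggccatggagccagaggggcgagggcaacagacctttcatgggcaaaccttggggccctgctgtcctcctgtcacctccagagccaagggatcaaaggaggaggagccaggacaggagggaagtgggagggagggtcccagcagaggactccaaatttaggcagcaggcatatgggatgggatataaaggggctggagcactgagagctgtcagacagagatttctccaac

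In MT and GMT, accessibility at the sarcomere loci was mostly gained, and beyond the share of all regions. Of the 42 regions, 35 had enough counts to be tested, and levels are given in CPM as mean ± SD of 3 libraries. A region is called where edgeR's quasi-likelihood test gave an adjusted p under 0.05 over all 20494 regions tested, and rose and fell are used for called regions only. In GMT cells 16 members rose and 1 fell against the control, where 23% of all regions tested rose and 10.5% fell. In MT cells 12 rose and 1 fell, against 17.5% and 7.2% of all regions. The median log2 fold change of the members was 1.25 in GMT and 1.12 in MT, and that of all regions 0.09 and 0.06. In G and M the members' medians were -0.33 and -0.1, and that of all regions 0 in both. In T, GM and GT they were 0.36, 0.37 and 0.3, and those of all regions -0.02, 0.05 and 0.05. The 16 rises in GMT came from 5 windows, with 5 Ttn, 5 Actc1, 3 Myl7 and 2 Actn2 regions and 1 region of the Myh6 and Myh7 window. Some of these regions lie close together, as Actc1 r11, r12 and r13 with gaps of 113 and 89 bp. The counts are of regions, which need not be separate sites.

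Groups with a single factor had fewer calls than MT and GMT. As above, factors and inhibitors cannot be told apart in these comparisons with the control. In T cells 6 members rose and 2 fell (all regions: 14.5% and 10.6%), in M cells 2 rose and 1 fell (9.67% and 6.47%), and in G cells 2 fell (6.07%). In either direction, 22.9% of the members were called in T, near the 25.1% of all regions. In M and G the shares were 8.57% and 5.71% of the members, below the 16.1% and 15.7% of all regions. No member was called higher in G by edgeR or DESeq2 (9.61% of all regions by edgeR), and 2 were higher at an unadjusted edgeR p under 0.05. Counting both directions, 14.3% of the members and 28.9% of all regions had such a p in G. In GT cells 4 members rose (13.1%), and in GM cells 2 (8.5%). No member was called lower in GT or GM by edgeR or DESeq2 (5.81% and 3.75% of all regions by edgeR). At an unadjusted edgeR p under 0.05, 1 member was lower in each. Counting both directions, 17.1% and 11.4% of the members had such a p, and 31.9% and 25.9% of all regions. The shares of members that rose in GT and GM, 11.4% and 5.71%, are near those of all regions. Single libraries moved these small counts. The G count was 5 without G replicate 2, 1 without control replicate 2 and 0 without control replicate 1, control replicate 3, G replicate 1 or G replicate 3. The M count was 5 without GT replicate 1, the GM count 0 without control replicate 3 and 1 without control replicate 2, GM replicate 1 or GM replicate 3, and the T count 5 without T replicate 2. The GT count was 0 without GT replicate 2, 2 without control replicate 2 and 5 without GT replicate 1. The 7 comparisons share the control libraries and are not independent of each other.

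**Figure D1:**
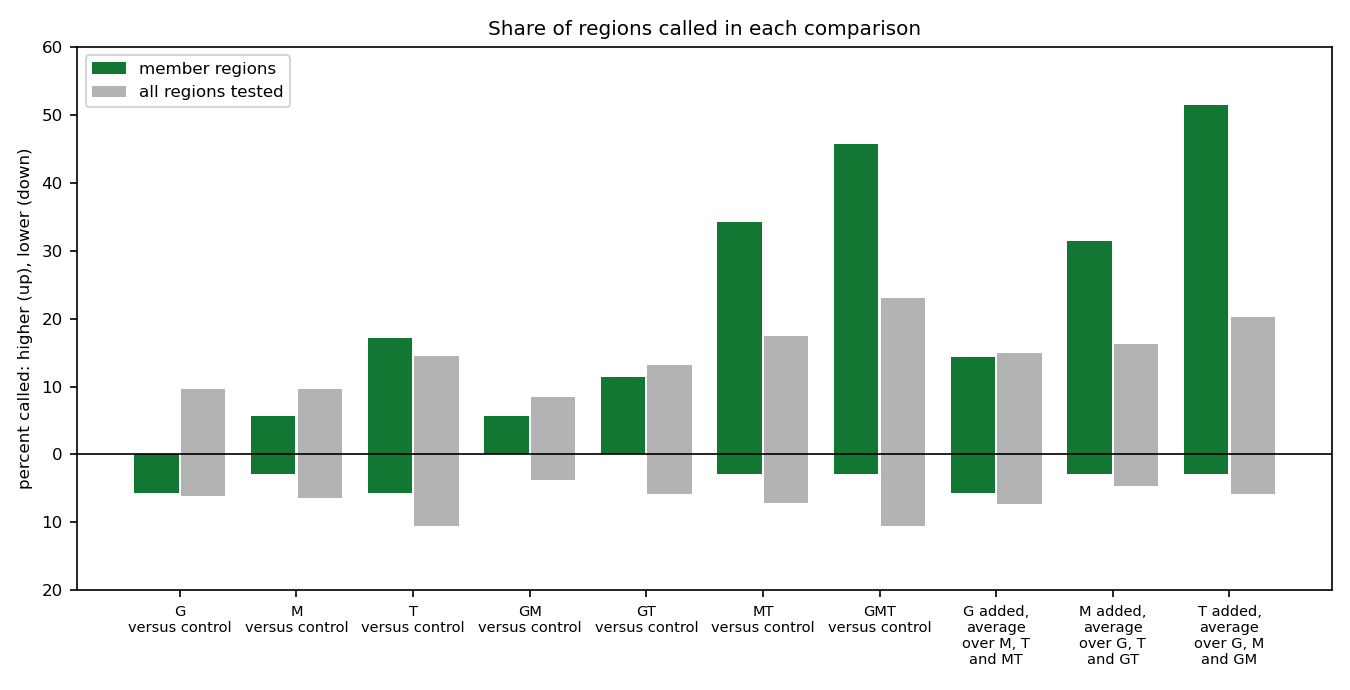
Percent of the 35 tested member regions (green) and of all 20494 regions tested (grey) that were called higher (upward bars) or lower (downward bars), for the 7 comparisons with the control and the 3 average additions of a factor. In GMT 16 members were higher against 23% of all regions, and on the addition of T 18 were higher against 20.3%.

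Comparisons between factor groups, all with the inhibitors, gave most calls for T, then M, then G. Against the control, the share called in T was near that of all regions. There M and G had 3 and 2 calls, too few to order them, and 6 each without the 4 libraries named above as nearer to another group. Adding T, averaged over the addition to G, to M and to GM, raised 18 of 35 members and lowered 1 (20.3% and 5.86% of all regions, 26.2% in all). Adding M, averaged over G, T and GT, raised 11 and lowered 1 (16.2% and 4.58%). Adding G, averaged over M, T and MT, raised 5 and lowered 2 (15% and 7.25%), close to its background. Median log2 fold changes of the members were 0.88 for T, 0.39 for M and 0.06 for G, where all regions gave -0.07, -0.05 and -0.02. Scaling by loess offsets left 15 higher and 2 lower for T and 9 and 2 for M. It also moved the share of higher calls among all regions from 77.6% to 58% for T, from 78% to 55.8% for M and from 67.4% to 54.6% for G, so that the split of calls over all regions depends on the scaling. Of the single steps, MT over M raised 10 members (10.4% of all regions), MT over T raised 5 and lowered 1 (5.29% and 1.16%), GT over T raised 1 and lowered 3 (7.41% and 5.27%) and GM over M lowered 1 (1.87%), all in comparisons chosen after the values were seen. No member was called higher in GM over M by edgeR or DESeq2 (2.64% of all regions by edgeR), with 5 higher at an unadjusted edgeR p under 0.05. Counting both directions, 20% of the members and 18.6% of all regions had such a p.

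Without GT replicate 1, the counts were 22 for T, 14 for M and 5 for G, and without all 4 doubted libraries 25, 15 and 8, with 17 in MT and 24 in GMT against the control. Loess offsets gave 11 higher and 2 lower members in GMT and 8 and 1 in MT, where they moved the share of higher calls among all regions from 68.7% to 53.5% and from 70.8% to 56.2%. In GM and GT that share went from 69.4% to 56.9% and from 69.2% to 57.2%. The GMT count was 9 without control replicate 3 or GMT replicate 3 and 11 without GMT replicate 2, and the MT count 8 without control replicate 3 or MT replicate 2. Of 138 called pairs of a member and a comparison (5 comparisons added below included), 65 kept the call whichever single library was left out. Below, a call that was lost in this way is given with the library.

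**Figure D2:**
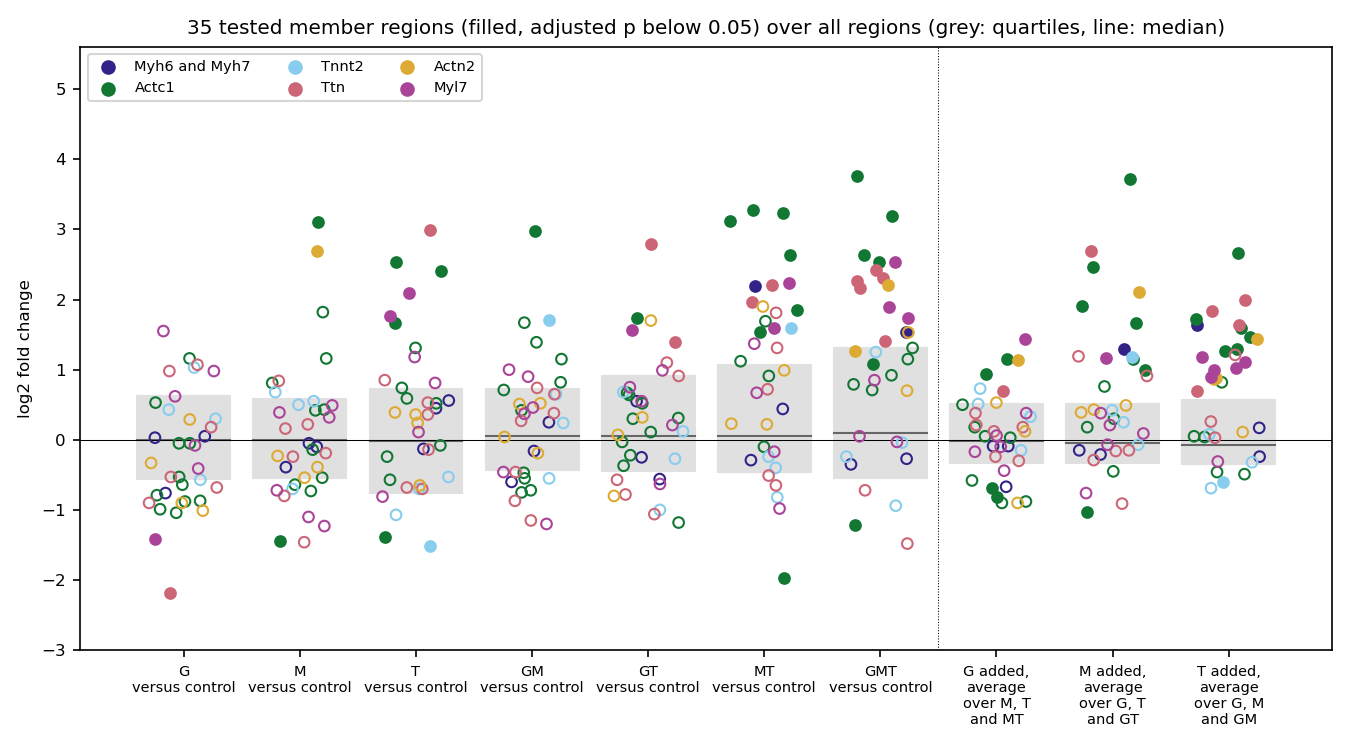
Log2 fold change (vertical axis) of each of the 35 tested member regions in 7 comparisons with the control and 3 average additions, coloured by window and filled where called. Grey boxes and lines give the quartiles and the median of all regions tested; the members' median was 1.25 in GMT and 0.88 on the addition of T, where that of all regions was 0.09 and -0.07.

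Thick filament: the Myh6 and Myh7 window. Of its 3 regions, the one in the middle, Myh6 r2 (chr14:55586797-55587044, 248 bp), was most open where M and T came together, and the other two were not called. It stood at 98, 58.6 and 53.9 CPM in the control, at 53.5, 62.1 and 37.7 in M, and at 93.8, 149 and 58.9 in T. In MT it reached 373, 463 and 94.2 CPM, and in GMT 92.3, 246 and 234. All libraries of G, M, GM and GT stayed at or below 71.2 CPM, while MT replicate 3 and GMT replicate 1 lay within the range of the control. The region rose by 2.19 ± 0.44 (log2 fold change ± SE) in MT over the control (edgeR adjusted p 0.000481) and by 2.59 ± 0.45 in MT over M (edgeR adjusted p 0.00021). MT versus M is 1 of 5 comparisons chosen after the values were seen (GM versus M, MT versus M, MT versus T, GT versus T and GMT versus MT), and 12.5% of all regions were called in it. Both calls held without any 1 library.

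Adding T raised Myh6 r2 by 1.64 ± 0.27 on average (edgeR adjusted p 1.3e-05), and adding M by 1.29 ± 0.26 (edgeR adjusted p 0.000396). Both average calls held in all alternatives. In GMT over the control it rose by 1.53 ± 0.44 (edgeR adjusted p 0.00785), a call that was lost without control replicate 3 (0.0559) or GMT replicate 2 (0.065). The difference between GMT and MT, -0.67 ± 0.41, was not called (edgeR adjusted p 0.466). MT over T gave 1.63 ± 0.43 (edgeR adjusted p 0.0178; 6.46% of all regions called), lost without T replicate 1, T replicate 3, MT replicate 1 or MT replicate 2 (adjusted p 0.101, 0.0932, 0.0752 and 0.194). Whether the change in MT exceeds the sum of those in M and T was not tested.

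Myh6 r1 (chr14:55512572-55512787), the most accessible member of all 42, and Myh6 r3 (chr14:55634898-55635168) were called in none of the 13 planned comparisons. Group means of Myh6 r1 lay between 160 ± 34.7 CPM (GMT) and 210 ± 63.4 (G), and its libraries ran from 117 (GT replicate 3) to 280 (G replicate 3). The control libraries stood at 160, 218 and 242 CPM and those of MT at 188, 175 and 144. Myh6 r3 stood between 7.75 ± 3.31 (GMT) and 14.8 ± 5.78 CPM (GT). Summed over the window, the level was 287 ± 20.1 CPM in the control, 494 ± 216 in MT and 359 ± 124 in GMT, and the other groups lay between 236 ± 39.8 (GT) and 306 ± 68 (T).

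Thin filament: the Actc1 window. Cardiac actin's window held the largest changes of the set and, among its 13 regions, 4 different patterns. Of the regions in the middle of the window, r8 rose over the control in all 4 groups with T, r6 in T, MT and GMT, and r9 in T. At its far end r11 rose in GM, MT and GMT, and r12 and r13 in MT and GMT. Region r10 rose in M and in MT, and region r3 was lower in M, T and MT than in G. The summed level of the window was 227 ± 29.7 CPM in the control and within that spread in G (214 ± 31.4) and GM (215 ± 38.4). M stood at 195 ± 38, T at 532 ± 79.9, MT at 465 ± 111, GMT at 420 ± 77.9 and GT at 300 ± 37.3. All libraries of T, GT, MT and GMT lay above all control libraries.

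Actc1 r6 (chr2:113883177-113883521, 345 bp) was highest in T and MT. It stood at 69, 44.3 and 44.5 CPM in the control, at 185, 183 and 127 in T, at 198, 173 and 70.6 in MT and at 72.2, 119 and 126 in GMT. G gave 22.7, 41.6 and 19.8 CPM, M 50.1, 38.3 and 53.2, GM 21.7, 42.2 and 33.2 and GT 30.3, 86.7 and 73.5. The T, MT and GMT libraries did not overlap the control, and GT did. The rise in T over the control was 1.67 ± 0.37 (edgeR adjusted p 0.00115), in MT over the control 1.54 ± 0.37 (edgeR adjusted p 0.00257) and in T over G 2.66 ± 0.40 (edgeR adjusted p 8.3e-06), where 33.4% of all regions were called. Adding T raised it by 1.60 ± 0.23 (edgeR adjusted p 1.59e-06), and adding G lowered it by 0.81 on the log2 scale (SE 0.22, edgeR adjusted p 0.00694), or by 0.70 without GT replicate 1 (0.0154). The rise in GMT over the control, 1.08 ± 0.37 (edgeR adjusted p 0.0259), was lost without control replicate 2 or 3 or GMT replicate 2 or 3 (adjusted p 0.104 to 0.117).

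Actc1 r8 (chr2:113897432-113897990, 559 bp) rose in all 4 groups with T and in no other. Its control libraries stood at 20, 11.7 and 4.73 CPM, and those of T at 67.4, 43.1 and 83.6. MT gave 82.6, 65.7 and 56.5 CPM, GMT 64.2, 50.3 and 90.2, and GT 8.85, 55.9 and 46. Every T, MT and GMT library was above every control library, and so were GT replicates 2 and 3, whereas GT replicate 1 was not. The log2 fold changes over the control were 2.54 ± 0.51 in T, 2.64 ± 0.50 in MT and 2.63 ± 0.51 in GMT (edgeR adjusted p 0.000436, 0.000318 and 0.000283). In GT the rise was 1.73 ± 0.52 (edgeR adjusted p 0.018), lost without control replicate 2, control replicate 3 or GT replicate 2 (adjusted p 0.0618, 0.16 and 0.219), and 2.22 without GT replicate 1 (0.000714). Adding T raised the region by 2.67 ± 0.30 (edgeR adjusted p 5.75e-08). G, M and GM means lay between 6.23 ± 1.63 and 15.6 ± 4.34 CPM.

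Actc1 r9 (chr2:113913360-113914000), at 641 bp the widest member, was most open in T alone. It stood at 284, 249 and 133 CPM there and at 15.6, 49.5 and 53.9 in the control. With a further factor the level was lower: GT stood at 29.1, 91.4 and 73.5 CPM, MT at 95.9, 67.4 and 68.3, and GMT at 60.2, 63.2 and 77.3. No library of these 3 groups reached the lowest T library. The rise in T over the control was 2.41 ± 0.39 (edgeR adjusted p 3.59e-05), and those over G and M were 3.20 ± 0.41 and 3.05 ± 0.41 (edgeR adjusted p 1.3e-06 and 2.46e-06). GT fell below T by 1.77 on the log2 scale (SE 0.38, edgeR adjusted p 0.00282; 12.7% of all regions called), a call that held without any single library and was -1.40 without GT replicate 1. MT fell below T by 1.49 (SE 0.37, edgeR adjusted p 0.0119), lost without T replicate 2 (0.0785) or MT replicate 2 (0.0577).

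At the far end of the window, Actc1 r11 (chr2:113955982-113956237), r12 (chr2:113956351-113956567) and r13 (chr2:113956657-113956857) lie 113 and 89 bp apart. Their levels were low in the control, at 3.73 ± 2.58, 2.86 ± 1.58 and 2.36 ± 1.49 CPM. Actc1 r11 stood at 33, 35.4 and 16.5 CPM in MT, at 20.1, 52.9 and 55.5 in GMT, and at 25.6, 7.45 and 42.6 in GM. It stood at 6.69, 8.27 and 6.65 CPM in M, and G, T and GT libraries were between 0 and 9.49. All 9 libraries of GM, MT and GMT were above all 3 of the control, and GM replicate 2 was within the range of M. GM replicate 2 (7.45 CPM) and control replicate 1 (6.68 CPM) each had 3 counts, so their order rests on the scaling of the libraries. Against the control the region rose by 3.76 ± 0.64 in GMT, the largest rise over the control of any member, and by 3.12 ± 0.66 in MT (edgeR adjusted p 8.25e-05 and 0.00082). In GM it rose by 2.97 ± 0.66 (edgeR adjusted p 0.00337), lost without control replicate 3 (0.0535). The average addition of M raised it by 3.72 ± 0.40 (edgeR adjusted p 2.29e-08), and the addition of T or G did not pass the test.

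Actc1 r12 and r13 were high in MT and GMT and lower in GM. In MT they stood at 23.5, 25.3 and 35.3 CPM and at 25.4, 21.9 and 18.8, and in GM at 6.58, 4.96 and 6.32 and at 5.92, 0 and 11.1. GMT gave 4.01, 19.3 and 19.8 CPM for r12 and 12, 20.6 and 28.7 for r13. The rises in MT over the control were 3.28 ± 0.68 and 3.23 ± 0.74 (edgeR adjusted p 0.000734 and 0.00171), and both held without any 1 library. MT over M was 2.47 ± 0.63 for r12 (edgeR adjusted p 0.00773) and also held. For r13 it was 2.80 ± 0.72 (edgeR adjusted p 0.00799), lost without M replicate 1 (0.0643) or M replicate 2 (0.0859).

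Actc1 r10 (chr2:113917356-113917558), 3355 bp beyond the end of r9, was most open in M. It stood at 23.4, 27.9 and 35.5 CPM in M, at 4.45, 5.21 and 0.946 in the control, and between 0.706 and 5.19 in the libraries of G and T. GM gave 5.92, 4.96 and 4.74 CPM, GMT 4.01, 6.45 and 6.94, and MT 16.5, 11.8 and 4.71. Each M library was above every other library of the study. The region rose by 3.10 ± 0.63 in M over the control (edgeR adjusted p 0.000829) and by 4.13 ± 0.69 in M over G (edgeR adjusted p 3.43e-05; 30.7% of all regions called). MT over the control was 1.85 ± 0.66 (edgeR adjusted p 0.0371), lost without control replicate 1, control replicate 3, MT replicate 1 or MT replicate 2 (adjusted p 0.0588, 0.254, 0.279 and 0.093). T was below M by 3.66 on the log2 scale (SE 0.73, edgeR adjusted p 0.000233; 31.4% called). GM was below M by 2.39 (SE 0.58, edgeR adjusted p 0.0147), where 4.52% of all regions were called, lost without M replicate 2, GM replicate 1 or GM replicate 3 (adjusted p 0.0606, 0.0589 and 0.0835). The counts behind it are low, 141 in all 24 libraries.

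Actc1 r3 (chr2:113810769-113811215) was the member with the most falls. It stood at 95.8, 83.4 and 59.6 CPM in the control and at 130, 104 and 107 in G. M gave 21.7, 22.8 and 44.4 CPM, T 23.5, 21.5 and 43.7, MT 15.2, 21.9 and 25.9 and GMT 56.2, 28.4 and 26.8. GM stood at 42.7, 59.6 and 71.1 CPM and GT at 166, 73.7 and 50.5, so that GT replicate 1 was the highest library of all. Against the control it fell in MT by 1.97 (SE 0.42, edgeR adjusted p 0.00097), which held without any 1 library. The falls in M (1.45), T (1.39) and GMT (1.21) were called too, and each was lost without 1 of 2 or 3 libraries: M replicate 1 or 2 (adjusted p 0.0653 and 0.0881), T replicate 1 or 2 (0.0593 and 0.0737), and control replicate 2, GMT replicate 2 or GMT replicate 3 (0.0592, 0.0901 and 0.132). Matched comparisons gave M below G by 1.98 (SE 0.40, edgeR adjusted p 0.000336) and T below G by 1.92 (SE 0.41, edgeR adjusted p 0.000551). Adding G raised it by 1.15 ± 0.25 (edgeR adjusted p 0.00106), without GT replicate 1 too. GT over T was 1.71 ± 0.41 (edgeR adjusted p 0.00702) but 1.08 without GT replicate 1 (0.126), and it was also lost without T replicate 2 (0.0605).

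The other Actc1 regions gave smaller values. Actc1 r4 was at 18 ± 4.03 CPM in M and 3.32 ± 1.06 in G, and M over G was 2.34 ± 0.67 (edgeR adjusted p 0.00732). Actc1 r5 was at 12.5 ± 0.832 CPM in the control, 27.4 ± 14.2 in MT and 26.6 ± 6.33 in GMT, and adding T raised it by 1.27 ± 0.32 (edgeR adjusted p 0.00245). Both held without any 1 library. Actc1 r2 ranged from 5.85 ± 3.93 CPM (MT) to 19.1 ± 10.2 (GM). Actc1 r1 and r7 had too few counts to be tested, 40 and 77 over all libraries.

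**Figure D3:**
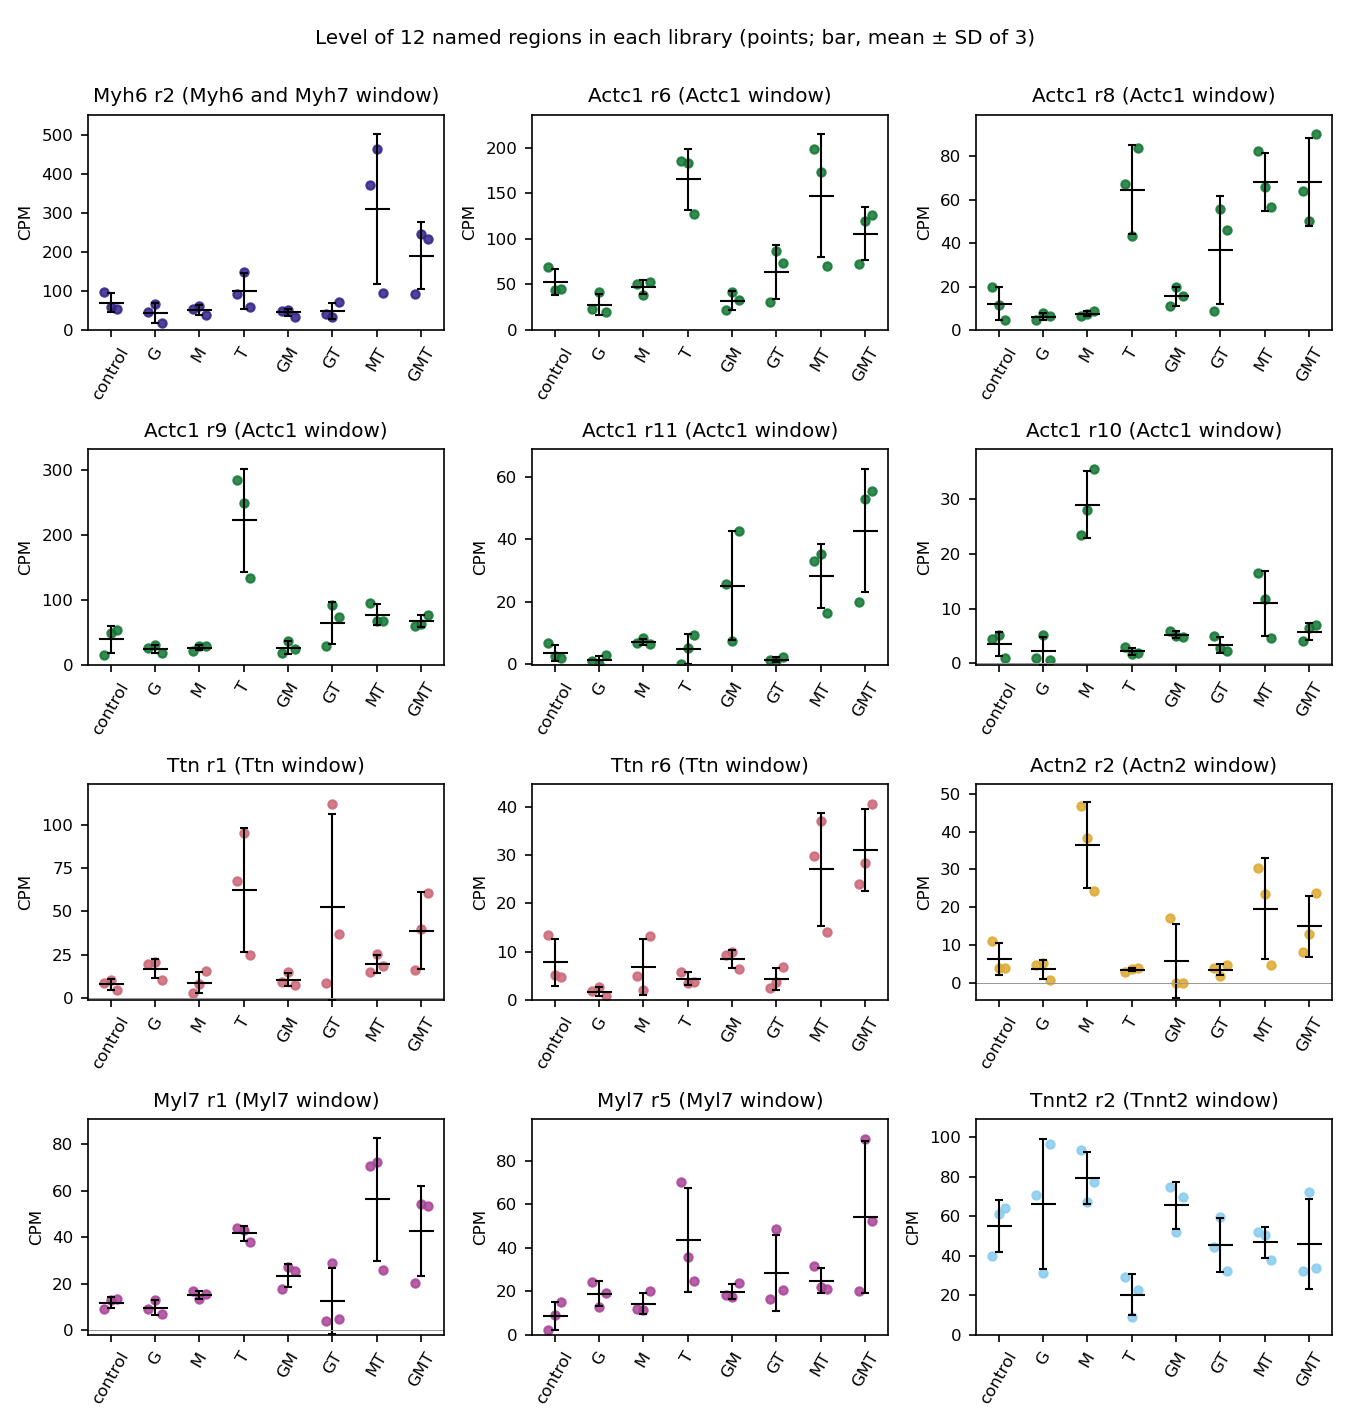
Level in CPM (vertical axis, linear) of 12 member regions in each of the 24 libraries (points), by group, with the mean and SD of 3 libraries in black. Actc1 r9 is highest in T (133 to 284 CPM), Actc1 r10 and Actn2 r2 are highest in M, Myh6 r2 in MT with 1 low library (94.2 CPM), and Tnnt2 r2 is lowest in T.

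Thin filament: the Tnnt2 window. The troponin T window was the only 1 of the 6 whose summed level was lowest in T. Tnnt2 r2 (chr1:137691095-137691327) stood at 40.1, 61.2 and 64.3 CPM in the control, at 93.6, 67.2 and 77.6 in M and at 29.3, 8.97 and 22.8 in T. The T libraries were below every other library of the study. T was below M by 2.01 on the log2 scale (SE 0.44, edgeR adjusted p 0.00059) and below G by 1.81 (SE 0.43, edgeR adjusted p 0.00157), and both held without any 1 library. Below the control the fall was 1.51 (SE 0.44, edgeR adjusted p 0.0103), lost without T replicate 2 (0.0863). GT (44.2, 59.7 and 32.2 CPM), MT (52.1, 50.5 and 37.7) and GMT (32.1, 72.2 and 33.7) were above T and overlapped the control.

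Tnnt2 r4 (chr1:137732646-137732851), 40893 bp further on, was called higher over the control in GM and MT. It stood at 11.1, 9.12 and 7.57 CPM in the control, at 34.8, 14.9 and 36.3 in GM, at 32.4, 28.6 and 18.8 in MT and at 8.03, 28.4 and 22.8 in GMT. G gave 20.8, 10.4 and 21.2 CPM, M 6.69, 12.4 and 22.2, GT 12.6, 19.6 and 9.19, and T 0, 8.97 and 5.7. The average addition of M raised it by 1.18 ± 0.31 (edgeR adjusted p 0.00509), which held without any 1 library. Over the control, GM (1.71 ± 0.52, edgeR adjusted p 0.0284) and MT (1.59 ± 0.53, edgeR adjusted p 0.0254) were called, and each call was lost without any of the 3 control libraries and without replicate 1 or 3 of GM or 1 or 2 of MT (adjusted p 0.0549 to 0.159). GMT (1.25 ± 0.54, edgeR adjusted p 0.0723) and G (1.03 ± 0.53, edgeR adjusted p 0.202) were not called. Tnnt2 r1 was called in no planned comparison, at 37.8 ± 7.58 (GT) to 74.2 ± 28.8 CPM (control). Tnnt2 r3, 187 bp from r2, was at 5.87 ± 3.02 CPM in T and 20.5 ± 10.1 in M. The summed window stood at 84.5 ± 23 CPM in T, 152 ± 43.5 in the control and 168 ± 14.7 in GM.

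Elastic filament: the Ttn window. Titin's window spans 380 kb, and its 7 tested regions differed in the groups where they were most open. Ttn r1 (chr2:76526274-76526504) was highest in T and GT: it stood at 67.4, 95.1 and 24.7 CPM in T, at 8.91, 10.4 and 4.73 in the control and at 3.34, 8.27 and 15.5 in M. GT gave 8.85, 112 and 36.8 CPM, MT 15.2, 25.3 and 18.8 and GMT 16.1, 40 and 60.5, so that GT replicate 1 was again at the control level. T rose over the control by 2.99 ± 0.66 (edgeR adjusted p 0.00104) and over M by 2.83 ± 0.66 (edgeR adjusted p 0.00123), and adding T raised it by 1.63 ± 0.37 (edgeR adjusted p 0.000952). These 3 calls held without any 1 library. The rise in GT, 2.79 ± 0.65 (edgeR adjusted p 0.0037), was 1.40 without GT replicate 2 (0.208) and 3.30 without GT replicate 1 (8.96e-05). MT was 1.68 below T on the log2 scale (SE 0.60), which was not called (edgeR adjusted p 0.0826).

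Ttn r6 (chr2:76819790-76820050) was highest where M and T came together. It stood at 29.9, 37.1 and 14.1 CPM in MT and at 24.1, 28.4 and 40.6 in GMT. The control gave 13.4, 5.21 and 4.73 CPM, G 1.81, 2.6 and 0.706, M 5.01, 2.07 and 13.3 and T 5.86, 3.59 and 3.8. GM was at 9.21, 9.93 and 6.32 CPM and GT at 2.53, 3.73 and 6.89, so every library of MT and GMT was above every other library. MT replicate 3, control replicate 1 and M replicate 3 each had 6 counts, so their order rests on the scaling of the libraries. Adding M raised it by 2.69 ± 0.38 (edgeR adjusted p 2.37e-06), adding T by 1.83 ± 0.38 (edgeR adjusted p 0.000388) and GMT over the control by 2.17 ± 0.55 (edgeR adjusted p 0.00309), and none was lost without 1 library. MT over the control was 1.96 ± 0.55 (edgeR adjusted p 0.0082), lost without control replicate 2, control replicate 3 or MT replicate 2 (adjusted p 0.0563, 0.0757 and 0.0608). The fall in G, 2.18 (SE 0.77, edgeR adjusted p 0.0496), was lost without control replicate 1, 2 or 3 or G replicate 1 or 3 (adjusted p 0.165, 0.0718, 0.0648, 0.123 and 0.253).

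Close to it lie Ttn r7 (chr2:76821264-76821572) and Ttn r9 (chr2:76822578-76822806), which were also highest in MT and GMT. Ttn r7 was at 4.28 ± 2.98 CPM in the control, 13.5 ± 7.62 in MT and 18.1 ± 5.49 in GMT, and adding T raised it by 1.99 ± 0.44 (edgeR adjusted p 0.000704), in all alternatives. Ttn r9 was at 5.34 ± 3.51, 21.6 ± 12.1 and 25.2 ± 16.3 CPM in the same groups. Ttn r3 (chr2:76766457-76766663) stood at 13.4, 9.12 and 15.1 CPM in the control, at 24.5, 20.8 and 28.3 in G, at 6.69, 11.4 and 15.5 in M, at 29.1, 33.6 and 39.1 in GT and at 28.1, 28.4 and 42.6 in GMT. M was below G by 1.17 (SE 0.44, edgeR adjusted p 0.0379), lost without G replicate 1, G replicate 3, M replicate 1 or M replicate 2 (adjusted p 0.072, 0.136, 0.165 and 0.112).

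The titin region with the highest mean log2 CPM, Ttn r4 (chr2:76767877-76768083), and Ttn r5 were called in no planned comparison. Their means were highest in the control, at 34.9 ± 10.5 and 29.1 ± 4.8 CPM, and lowest at 19.9 ± 7.75 (GM) and 10.8 ± 6.82 (M). Ttn r4 stood at 44.5, 36.5 and 23.6 CPM in the control and at 11.8, 27.3 and 20.5 in GM. Ttn r2, r8 and r10 had 91, 107 and 138 counts over all libraries and were not tested. Summed over the window, GMT was at 214 ± 47 CPM and the control at 121 ± 34.9.

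Z-disc: the Actn2 window. Alpha-actinin's window was the least accessible, at 38.4 ± 22.1 CPM in the control, and it was highest in GMT (92.3, 96.7 and 92.2 CPM). Actn2 r2 (chr13:12430255-12430457) was, like Actc1 r10, most open in M. It stood at 46.8, 38.3 and 24.4 CPM in M, at 11.1, 3.91 and 3.78 in the control, and between 0.706 and 5.19 in G, T and GT. MT gave 30.5, 23.6 and 4.71 CPM, GMT 8.03, 12.9 and 23.8, and GM 17.1, 0 and 0. All 3 M libraries were above all libraries of the control, G, T, GM, GT and GMT. M rose over G by 3.59 ± 0.77 (edgeR adjusted p 0.00056) and T was below M by 3.34 (SE 0.83, edgeR adjusted p 0.0022), both in all alternatives. M over the control was 2.69 ± 0.72 (edgeR adjusted p 0.00854), lost without control replicate 2 (0.0566) or 3 (0.0722). GM was 2.18 below M (SE 0.66), at an edgeR adjusted p of 0.0501. The average addition of M, 2.10 ± 0.49 (edgeR adjusted p 0.00177), was 0.23 without GM replicate 1 (0.805).

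Across the 24 libraries, the log2 CPM of Actn2 r2 and Actc1 r10 correlated with an r of 0.78. This is a description over libraries that share depth and group. The highest pair was Actc1 r6 with Actc1 r8 (0.85), and Myh6 r2 went with Actc1 r5 (0.82) and Ttn r6 (0.78) on other chromosomes. The median over 106 pairs within a window was 0.24 and over 489 pairs between windows 0.1.

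Actn2 r1 (chr13:12405925-12406242) and Actn2 r4 (chr13:12465088-12465443) were highest in GMT. Actn2 r1 stood at 44.1, 25.8 and 20.8 CPM there and at 8.91, 6.51 and 3.78 in the control, and adding T raised it by 1.44 ± 0.36 (edgeR adjusted p 0.00232) in all alternatives. GMT over the control was 2.21 ± 0.62 (edgeR adjusted p 0.00663), lost without control replicate 3 (0.0565). Actn2 r4, the most accessible of the window, stood at 36.1, 38.7 and 32.7 CPM in GMT and at 24.5, 15.6 and 7.57 in the control. Its rise of 1.26 ± 0.49 (edgeR adjusted p 0.0458) was lost without control replicate 2 or 3 or any GMT library (adjusted p 0.0792 to 0.264). Actn2 r3 was called in no planned comparison.

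Atrial light chain: the Myl7 window. Regions r2 to r5 of this window lie 62 to 200 bp apart, and 5 of its 6 tested regions rose on the average addition of T. Myl7 r1 (chr11:5788894-5789391) stood at 44, 43.1 and 38 CPM in T, at 70.5, 72.4 and 25.9 in MT and at 20.1, 54.2 and 53.5 in GMT. The control gave 8.91, 13 and 13.2 CPM, G 9.06, 13 and 7.06, M 16.7, 13.4 and 15.5, GM 17.8, 27.3 and 25.3 and GT 3.79, 28.9 and 4.6. Every library of T, MT and GMT was above every library of the control, G and M. The region rose by 2.24 ± 0.51 in MT and 1.89 ± 0.51 in GMT over the control (edgeR adjusted p 0.00156 and 0.00546) and by 2.19 ± 0.54 in T over G (edgeR adjusted p 0.00214), all without loss on leaving out 1 library. T over the control was 1.77 ± 0.53 (edgeR adjusted p 0.0121), lost without control replicate 1 (0.051) or T replicate 2 (0.0519). Adding T gave 1.18 ± 0.30 (edgeR adjusted p 0.00295), but 0.60 without GT replicate 2 (0.201). For Myl7 r2 the addition of T, 0.90 ± 0.31 (edgeR adjusted p 0.0299), was lost without any 1 of 10 libraries (G 1, M 1, M 2, GM 2, GT 2, GT 3, MT 1, MT 2, GMT 2 and GMT 3, adjusted p 0.0646 to 0.118).

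Myl7 r5 (chr11:5792997-5793300) had the largest rise of the window over the control. It stood at 20.1, 90.3 and 52.5 CPM in GMT, at 70.4, 35.9 and 24.7 in T and at 2.23, 9.12 and 15.1 in the control, which no GMT or T library overlapped. GMT rose by 2.53 ± 0.53 (edgeR adjusted p 0.00057), in each fit without 1 library. T rose by 2.09 ± 0.55 (edgeR adjusted p 0.00451), lost without T replicate 1 (0.052), and GT (16.4, 48.5 and 20.7 CPM) by 1.57 ± 0.54 (edgeR adjusted p 0.0372), lost without control replicate 1, control replicate 2 or GT replicate 2 (adjusted p 0.151, 0.119 and 0.422), and 1.86 without GT replicate 1 (0.015). Adding T raised it by 1.00 ± 0.29 (edgeR adjusted p 0.00954), lost without GT replicate 2 (0.0627) or GMT replicate 2 (0.055).

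Myl7 r3 (chr11:5792217-5792457), the most accessible region of the window on the log2 scale, stood at 37.9, 16.9 and 49.2 CPM in the control. It was lower in G (10.9, 13 and 14.8), M (10, 16.5 and 17.7) and GM (12.5, 14.9 and 19) and about the control level in T (52.8, 35.9 and 26.6), MT (27.3, 32 and 35.3) and GMT (36.1, 42.6 and 29.7). Adding T raised it by 1.03 ± 0.27 (edgeR adjusted p 0.00393), which held without any 1 library. The fall in G, 1.42 (SE 0.46, edgeR adjusted p 0.0315), was lost without control replicate 1, control replicate 3, G replicate 1 or G replicate 3 (adjusted p 0.0573, 0.247, 0.155 and 0.0805). Myl7 r4, between r3 and r5, rose by 1.11 ± 0.29 on the addition of T (edgeR adjusted p 0.00428).

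Myl7 r8 (chr11:5820643-5821125) was highest in G and in GT replicate 1. It stood at 47.1, 18.2 and 21.9 CPM in G, at 1.67, 3.1 and 11.1 in M, at 8.79, 1.79 and 7.6 in T and at 13.4, 13 and 5.67 in the control. M was below G by 2.64 on the log2 scale (SE 0.70, edgeR adjusted p 0.0039), which held without any 1 library. In GT it stood at 44.2, 6.53 and 9.19 CPM, with GT replicate 1 at the level of G. The average addition of G, 1.43 ± 0.44 (edgeR adjusted p 0.0167), was 0.97 without GT replicate 1 (0.0939). Myl7 r6 and r7 were not tested.

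**Figure D4:**
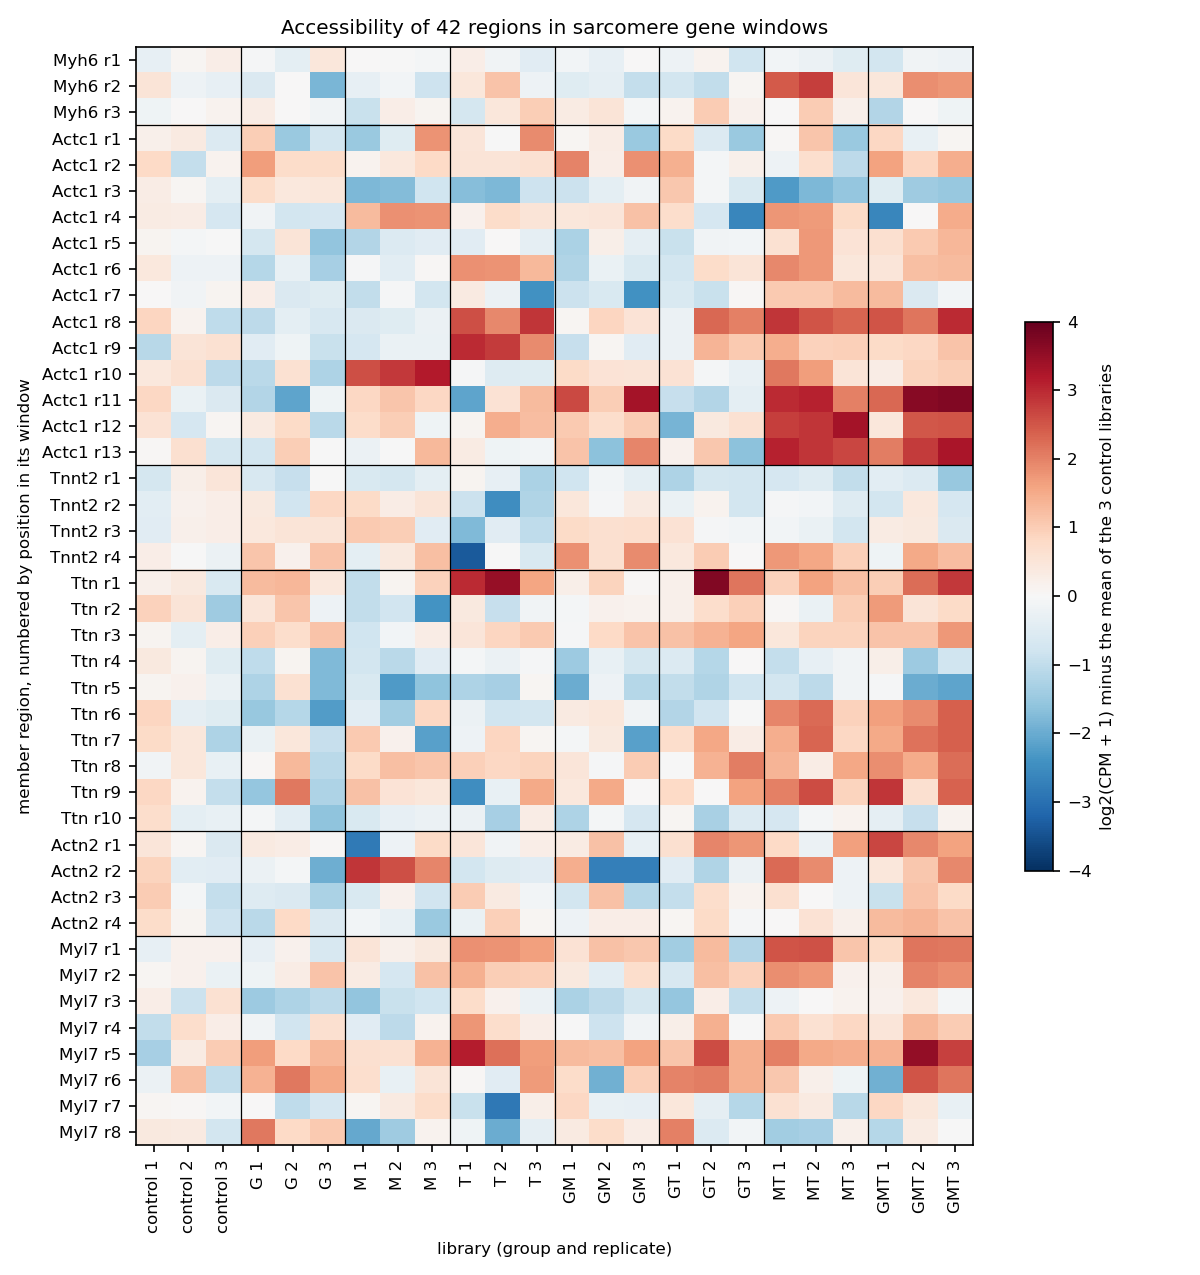
Log2(CPM + 1) minus the mean of the 3 control libraries for all 42 regions (rows, by window) in 24 libraries (columns, by group), the 7 untested ones included. Red is above and blue below the control mean; Actc1 r10 and Actn2 r2 are red in M, Actc1 r11 in GM, MT and GMT, and GT 1 differs from GT 2 and GT 3 at Ttn r1 and Actc1 r8.

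**Figure D5:**
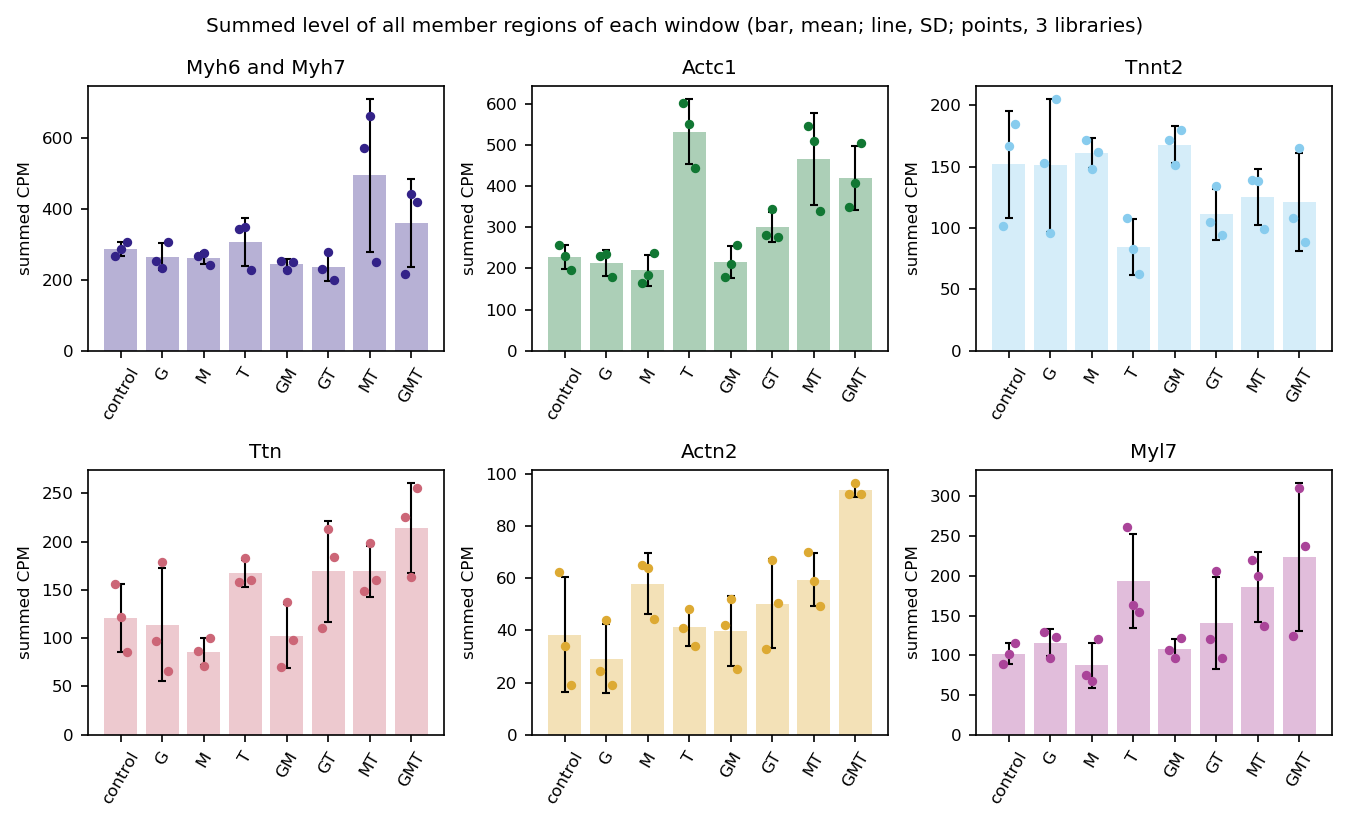
Summed CPM of all member regions of each window by group (bars, mean; lines, SD; points, the 3 libraries), with a separate vertical axis for each window. Actc1 is highest in T (532 ± 79.9), Myh6 and Myh7 in MT (494 ± 216), Ttn, Actn2 and Myl7 in GMT, and Tnnt2 is lowest in T (84.5 ± 23).

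Across the windows, 23 of 35 tested members were called in at least 1 of the 7 comparisons with the control (65.7%, against 60.3% of all regions). Rises took 20 of them (57.1% against 40.3%) and falls 4 (11.4% against 21.8%), and Ttn r6 did both. Only Actc1 r3 and Actc1 r8 were called in at least 4 of the 7, 5.71% of the members against 14% of all regions. In none of the 13 planned comparisons were 6 members called: Myh6 r1, Myh6 r3, Tnnt2 r1, Ttn r4, Ttn r5 and Actn2 r3. Between GMT and MT no member was called by edgeR or DESeq2, where 0.986% of all regions were called by edgeR. An unadjusted edgeR p under 0.05 was found for 4 members (11.4%) and for 14.7% of all regions.

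For the member of each window called most often against the control (the first by position where members tied, as in the Ttn, Actc1, Myl7 and Actn2 windows), the region outside all windows with the most similar log2 CPM over the 24 libraries was looked up. Myh6 r2 was most like chr3:126890133-126890492 (Pearson r 0.906), and Ttn r1 most like chr6:83523907-83524532 (0.922). For Actc1 r3 it was chr11:89012056-89012261 (0.93), for Myl7 r1 chr3:101608268-101608567 (0.874), for Tnnt2 r4 chr5:105730278-105730652 (0.84) and for Actn2 r1 chr6:136809169-136809505 (0.795). Each is the highest of all tested regions outside the windows, chosen for that value, and the libraries share depth and group. These regions carry no gene names here.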

How the data were processed

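Per the labels' protocols, cells were transposed unsorted at day 2 for ATAC-seq. Bowtie2, Picard and featureCounts, with build mm9, are named in the submitters' processing notes. The values deposited by the authors are unnormalised counts, 1 column for each of 24 libraries. The definition of the regions and the filters on reads are not given in the sources used here. Of 27 labelled samples, 3 have no column and were not analysed here. The labels call the replicates biological, 3 per group.

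Regions were kept by filterByExpr (minimum count 10, minimum total 15), which left 20494 of 30815 and 35 of 42 members. Libraries were scaled by TMM, and 8 groups were fitted together with edgeR 4.0.16 (limma 3.58.1, R 4.3.3) and its quasi-likelihood test. Each of 13 planned and 5 later comparisons had its own Benjamini-Hochberg adjustment over all regions tested. The SE is the log2 fold change divided by the square root of F, and correlations used log2 CPM with a prior count of 2. Fits were tested on simulated data. Members passed the filter in some cases through the groups where they are high, so counts over the tested members are descriptions.

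Regions given by library (all libraries are plotted) are, per window, the one with the highest mean log2 CPM, the called regions with the largest rise and fall over the comparisons with the control and over those between factor groups, and any called in at least 4 of 7 comparisons with the control. Actc1 r9, r12 and r13 and Actn2 r1 were added after their values were seen. Members and lists were chosen with earlier results of these data known. Alternatives tried were size factors by RLE, totals alone, loess offsets (span 0.3), DESeq2 1.42.0, no filter, a stricter one (minimum count 20), fits of the compared groups only, a replicate block and leaving out libraries. Replicate numbers were not treated as pairs. Motif matches and promoters come from RefSeq (GRCm38.p6).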

Additional observations from a re-analysis of the deposited data

How the results depend on the processing

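For 138 called pairs of a member and a comparison, 2962 values under the alternatives gave 2431 kept calls, 531 lost calls and 0 reversed directions, and 40 pairs kept the call in every alternative. The stricter filter, which tests 19 members, changed most counts: G versus control 1 (2 as reported), M 1 (3), GM 1 (2), MT 8 (13), GMT 10 (17), G added 4 (7), M added 4 (12) and M versus G 2 (6). G versus control also gave 1 with RLE size factors, with total counts, with no filter and with DESeq2, GM gave 1 with loess offsets, and fits of the compared groups only gave 6 for M and 1 for GT. Leaving out the 4 doubted libraries together, a choice made after seeing the data, gave 6 for each of G, M and GM. The summed Actn2 level in GMT was 90.4 CPM with RLE size factors (93.7 as reported), more than 1 SD away.

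Leaving out 1 library or 1 replicate number gave 0 to 5 calls for G, 1 to 5 for M, 4 to 8 for T, 0 to 3 for GM, 0 to 5 for GT, 7 to 15 for MT and 2 to 20 for GMT against the control. It gave 1 to 8 for G added, 7 to 14 for M added, 9 to 22 for T added, 4 to 8 for M versus G, and 7 to 12 for T versus G and for T versus M. A replicate number left out of all groups removes 8 libraries. Single libraries behind shifts of over 1.5 times, beside those named in the results, were M replicates 1 and 2, T replicates 1 and 2 and MT replicate 1 for G added (3 or 4 calls), G replicate 1 for T versus G (7), and M replicates 1 and 2 and T replicate 1 for T versus M (7 each).

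The replicate block gave 1 call for G versus control and 11 for MT. Deviations of same-numbered libraries of different groups correlated at -0.437 to 0.482 (median 0.015), and 11 of 24 libraries correlated best with their own number, so the numbers were not treated as pairs. Loess offsets moved the median of all regions by -0.12 in GMT, and total counts by -0.13 for T versus G and -0.12 for T versus M. Depth limits the small regions, since 54.5% of member counts were below 10.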
